A study of Mus musculus with 6 samples.

Results

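The 9 genes described here encode transcription factors of the myeloid lineage: Spi1, Cebpa, Cebpb, Cebpd, Cebpe, Klf4, Maf, Gfi1 and Runx1. They were picked out by gene name, with earlier results of these data known. All 9 were found among the 55536 named genes measured. RNA sequencing of total RNA was done on 6 samples of C57BL/6 mice aged 8 weeks. Uncultured bone marrow (BM) was set beside 2 kinds of marrow-derived macrophage, cultured for 7 days: M-BMDM, which received M-CSF, and GM-BMDM, which received GM-CSF. M-BMDM were also sampled after 3 h (M-BMDM_3h) and 24 h (M-BMDM_24h) of interleukin-6 (IL6), and GM-BMDM after 3 h (GM-BMDM_3h). The labels name no genetic change in any group. The sources used here give neither the dose of IL6 nor the number of mice behind a library. Each group had 1 library, so there was no replicate, and the intervals below cover counting error only. The sources do not say when the untreated cultures were harvested, so IL6 and added time in culture cannot be told apart at 24 h.

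Spi1 encodes PU.1, an ETS factor that is required for macrophages and most other myeloid cells to form and that binds the enhancers of many of their genes. The C/EBP factors are basic leucine zipper proteins that bind DNA as dimers: C/EBPalpha acts at the entry into the granulocyte and monocyte lineage, C/EBPepsilon in the late maturation of granulocytes, and C/EBPbeta and C/EBPdelta in acute phase and inflammatory responses. Runx1 is needed for blood stem cells to arise, Gfi1 is a repressor that favours neutrophils over monocytes, Klf4 promotes monocyte differentiation, and Maf acts in mature macrophages, where it limits self-renewal.

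Sequences of 250 bases before the annotated start were shown for Cebpb, Cebpa and Klf4. Only these had a RefSeq window (GRCm38.p6) that lay upstream of the annotated gene. Each is written 5′ to 3′ on the strand of the gene, and capitals mark every match to the letters searched. The Cebpb window is chr2:167688665-167688914 on the plus strand, that of Cebpa is chr7:35119043-35119292 on the plus strand, and that of Klf4 is chr4:55532476-55532725 on the minus strand.
Cebpb: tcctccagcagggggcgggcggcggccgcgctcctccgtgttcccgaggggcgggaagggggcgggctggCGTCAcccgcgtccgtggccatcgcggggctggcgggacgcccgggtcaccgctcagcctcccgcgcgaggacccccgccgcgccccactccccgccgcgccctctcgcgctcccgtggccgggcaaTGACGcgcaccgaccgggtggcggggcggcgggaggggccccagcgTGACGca
Cebpa: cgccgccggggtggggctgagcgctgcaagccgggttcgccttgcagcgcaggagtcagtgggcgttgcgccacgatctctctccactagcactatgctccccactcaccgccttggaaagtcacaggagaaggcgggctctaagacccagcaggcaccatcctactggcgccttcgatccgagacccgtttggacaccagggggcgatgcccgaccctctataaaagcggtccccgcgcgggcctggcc
Klf4: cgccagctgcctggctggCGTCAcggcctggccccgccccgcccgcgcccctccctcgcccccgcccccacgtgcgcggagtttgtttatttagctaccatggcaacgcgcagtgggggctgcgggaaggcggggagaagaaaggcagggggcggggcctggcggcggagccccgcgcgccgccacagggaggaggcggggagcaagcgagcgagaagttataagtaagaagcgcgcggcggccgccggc

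The windows were searched on both strands for 8 strings, and no 2 matches overlapped. TGACG, the core letters of a cyclic AMP response element, matched 3 times in the Cebpb window, at positions -180, -53 and -7 from the start, and once, at -232, in that of Klf4. A match to TGACG was found in 17.8% of the 32851 mouse promoter windows of this length. The other strings had no match in these windows. They were GAGGAAGT and AGAGGAAG (in 2.44% and 3.67% of all windows), which resemble PU.1 sites, TTGCGCAA, TTGCGAAA and TTGCACAA (0.164%, 0.143% and 0.895%), which resemble C/EBP sites, TGTGGT (14%), which resembles a RUNX site, and TTCNNNGAA (7.02%), which resembles a STAT site. G and C made up 81.6% of the Cebpb window, 74% of that of Klf4 and 66.4% of that of Cebpa. A match describes the letters of the window and is not evidence of binding.

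The 6 libraries held between 18511777 and 24134374 counts in named genes. Levels below are in scaled CPM, the count of a gene as a share of the library after scaling for depth and composition by TMM. In BM, markers of red cell precursors made up 8.04% of scaled counts, those of mature neutrophils 2.76% and those of neutrophil precursors 1.35%. In the 5 cultures the 10 macrophage markers summed to between 2.60% and 4.78%, against 0.548% in BM. None was at 0 in any library, BM included. Lyz2 made up most of each sum, at 5093 CPM in BM, 26056 CPM in M-BMDM and 44326 CPM in GM-BMDM. Csf1r (169, 3238 and 1069 CPM in the same order) and Cd68 (61.8, 1039 and 1016 CPM) were also higher in both cultures. Mertk was lower in M-BMDM (7.69 CPM) than in BM (11.2 CPM), and C1qa in GM-BMDM (50.9 CPM) was near BM (46.0 CPM). In the cultures the red cell markers summed to at most 10.4 CPM, and neutrophil precursor markers to between 0.699 and 6.36 CPM. Of the 10 mature neutrophil markers, Ly6g and Retnlg were at 0 in every culture, and the other 8 had counts in each. The mature neutrophil list summed to 50.3 to 114 CPM with M-CSF, and to 549 and 591 CPM with GM-CSF. Mmp8 held most of the GM-CSF sums, at 513 CPM without and 557 CPM with IL6. Mmp9 (53.1 CPM) and Csf3r (45.2 CPM) held most of the M-BMDM sum. The 8 dendritic cell markers summed to 1036 CPM in GM-BMDM and 1033 CPM in GM-BMDM_3h. The sum was 15.3 to 28.0 CPM in the M-CSF cultures and 128 CPM in BM. Itgax alone gave 995 CPM in GM-BMDM, against 26.2 CPM in M-BMDM. Ccr7 (20.2 against 0.215 CPM) and Clec9a (15.7 against 0.108 CPM) were also higher in GM-BMDM. Zbtb46 (3.36 CPM) and Cd209a (1.24 CPM) were higher than in M-BMDM but below BM (8.95 and 14.7 CPM). In GM-BMDM and M-BMDM, Flt3 was at 0.322 and 0.323 CPM, Xcr1 at 0.184 and 0.806 CPM and Siglech at 0. Because these are bulk samples, fewer cells of a type and less RNA per cell cannot be told apart. The part that this cell mixture plays in the differences below was not tested.

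Spi1 was abundant everywhere and differed little between the cultures. The gene lies at chr2:91082390-91115756 on the plus strand (GRCm38, GENCODE M21). Its level was 227 CPM in BM, 384 CPM in M-BMDM, 446 CPM in M-BMDM_3h, 269 CPM in M-BMDM_24h, 366 CPM in GM-BMDM and 378 CPM in GM-BMDM_3h. BM was lowest and M-BMDM_24h next, and all 6 values lay within 2-fold of each other. M-BMDM and GM-BMDM_3h, neighbours in that order, did not differ beyond counting error.

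Runx1 (chr16:92601466-92826149, minus strand) had the same narrow range. It was at 58.6 CPM in BM, 109 CPM in M-BMDM, 103 CPM in M-BMDM_3h, 88.9 CPM in M-BMDM_24h, 75.1 CPM in GM-BMDM and 79.7 CPM in GM-BMDM_3h. The 3 M-CSF libraries were above both GM-CSF libraries, which were above BM. M-BMDM and M-BMDM_3h overlapped within counting error, as did GM-BMDM and GM-BMDM_3h.

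Cebpa (chr7:35119293-35121928, plus strand, 1 exon) was higher in the GM-CSF than in the M-CSF libraries. Its level was 60.6 CPM in BM, 68.1, 76.5 and 64.8 CPM in M-BMDM at 0, 3 and 24 h of IL6, and 186 and 195 CPM in GM-BMDM without and with IL6. Both GM-CSF libraries were above every other library. M-BMDM, M-BMDM_24h and BM were neighbours that did not differ from the next beyond counting error.

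Cebpb (chr2:167688915-167690418, plus strand, 1 exon) was the C/EBP gene that varied most among the cultures. It stood at 21.7 CPM in BM, 236 CPM in M-BMDM, 157 CPM in M-BMDM_3h, 22.0 CPM in M-BMDM_24h, 136 CPM in GM-BMDM and 132 CPM in GM-BMDM_3h. The 24 h library was at the level of BM, and the ratio of these libraries did not differ from 1 beyond counting error. The other 4 cultures lay between 132 and 236 CPM. Cebpb shares 312 exon bases with Tmem189 on the opposite strand, and whether counting used strand is not given in the sources used here. The level of Tmem189 was 49.4 CPM in BM, 309 CPM in M-BMDM, 338 CPM in M-BMDM_3h, 165 CPM in M-BMDM_24h, 339 CPM in GM-BMDM and 347 CPM in GM-BMDM_3h, so it too was lower in BM and in M-BMDM_24h than in the other 4. The part of that overlap in the Cebpb values was not tested.

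Cebpd (chr16:15887286-15891031, plus strand) was highest in marrow, at 80.5 CPM. The cultures were close together, at 29.2, 32.7 and 29.4 CPM in M-BMDM at 0, 3 and 24 h of IL6 and 27.4 and 29.2 CPM in GM-BMDM without and with IL6. M-BMDM_24h, M-BMDM, GM-BMDM_3h and GM-BMDM were neighbours that did not differ from the next beyond counting error. Its exons overlap those of Spidr, on the opposite strand, by 562 bases.

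Cebpe (chr14:54710360-54712174, minus strand) was far higher in marrow than in any culture. It was at 145 CPM in BM, from 3573 counts. It had 7 counts (0.376 CPM) in M-BMDM, 10 (0.458 CPM) in M-BMDM_3h and 26 (1.08 CPM) in M-BMDM_24h. In the GM-CSF cultures it had 49 counts (2.26 CPM) and, with IL6, 45 counts (2.47 CPM). The GM-CSF values were above all 3 M-CSF values, and all 5 were far below BM.

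Gfi1 (chr5:107716657-107726036, minus strand) was likewise highest in BM, then in the GM-CSF cultures. It gave 999 counts (40.4 CPM) in BM, 0 in M-BMDM, 1 in M-BMDM_3h, 0 in M-BMDM_24h, 19 (0.874 CPM) in GM-BMDM and 12 (0.658 CPM) in GM-BMDM_3h. A count of 0 allows up to 3 counts at this depth, so absence in the M-CSF libraries was not shown.

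Klf4 (chr4:55527143-55532466, minus strand) was at 30.9 CPM in BM, 19.6 CPM in M-BMDM, 19.2 CPM in M-BMDM_3h, 15.4 CPM in M-BMDM_24h, 44.8 CPM in GM-BMDM and 48.4 CPM in GM-BMDM_3h. BM lay between the lower M-CSF and the higher GM-CSF cultures. GM-BMDM and GM-BMDM_3h did not differ beyond counting error, nor did M-BMDM and M-BMDM_3h.

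Maf (chr8:115682942-115707794, minus strand) was at 14.5 CPM in BM, 225 CPM in M-BMDM, 202 CPM in M-BMDM_3h, 283 CPM in M-BMDM_24h, 28.0 CPM in GM-BMDM and 29.7 CPM in GM-BMDM_3h. The lowest of the 3 M-CSF libraries was above the highest of the other 3 by a wide margin, 202 against 29.7 CPM. Its exons overlap those of the antisense gene Gm15655 by 440 bases.

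**Figure D1:**
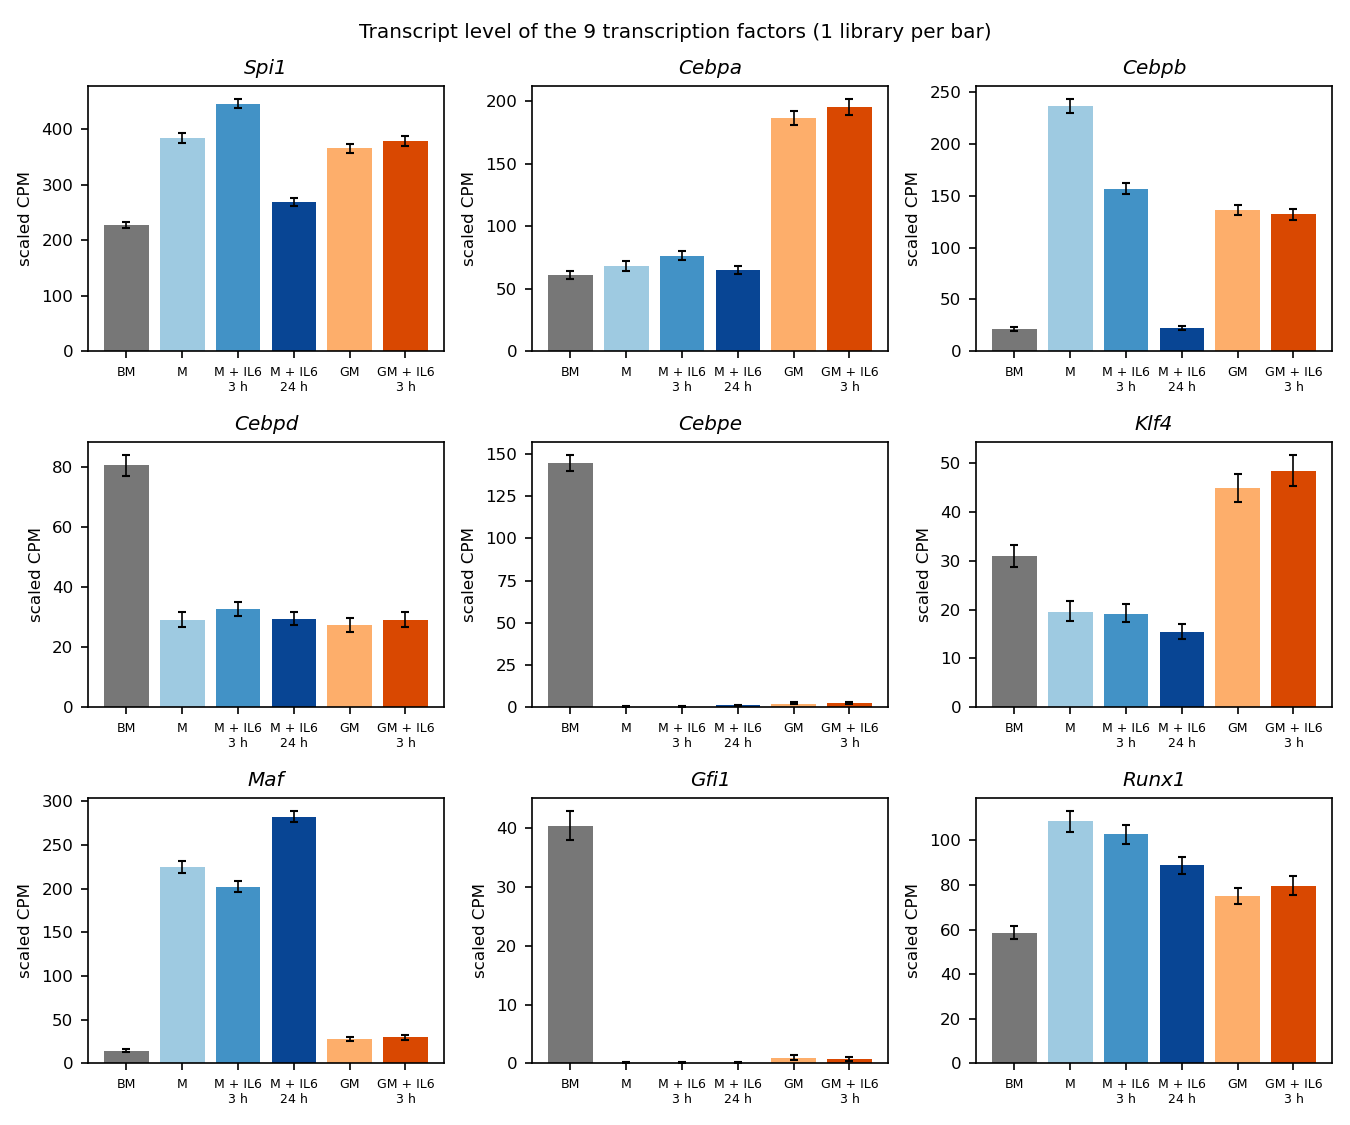
Level of each of the 9 genes in the 6 libraries, in scaled CPM on a linear axis from 0, with 1 library per bar and 95% binomial intervals for counting error. Cebpe and Gfi1 are high only in the BM bar, Maf is high in the 3 M-CSF bars, Cebpa and Klf4 are highest in the GM-CSF bars, and the Cebpb bar of M-BMDM_24h (22.0 CPM) is as low as that of BM (21.7 CPM).

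Between marrow and the M-CSF culture, Cebpb and Maf were higher and Cebpd, Cebpe and Gfi1 lower. To be called, a gene needed a ratio of scaled counts of 2-fold or more, an exact 95% Clopper-Pearson interval that left out 1, and 5 CPM or more in the library where it was higher. By that rule 2 of the 9 were higher and 3 lower in M-BMDM, where 20.6% of the 11226 genes with that level were higher and 22.6% lower, 43.2% in all. Maf was 15.5-fold higher, a log2 ratio of 3.95 (interval 3.80 to 4.11), and Cebpb 10.9-fold higher, a log2 ratio of 3.44 (3.31 to 3.57). Cebpe had a log2 ratio of -8.59 (-9.90 to -7.54) and Cebpd one of -1.46 (-1.60 to -1.33). Gfi1, with 0 counts in M-BMDM, was at least 251-fold lower when set against 3 counts in that library. Spi1 (0.76), Runx1 (0.89), Klf4 (-0.66) and Cebpa (0.17) had log2 ratios within 2-fold, all with intervals that excluded 1.

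Between marrow and the GM-CSF culture, Cebpa and Cebpb were higher and Cebpd, Cebpe and Gfi1 again lower. Thus 2 of 9 were higher and 3 lower, against 20.2% and 21.9% of 11352 genes, 42.1% in all. Cebpb was 6.25-fold higher, a log2 ratio of 2.64 (2.51 to 2.78), and Cebpa 3.07-fold higher, a log2 ratio of 1.62 (1.53 to 1.70). The log2 ratio of Cebpe was -6.00 (-6.44 to -5.60), that of Gfi1 -5.53 (-6.27 to -4.88) and that of Cebpd -1.56 (-1.69 to -1.42). Maf was just inside the limit, with a ratio of 1.93-fold, and was called higher when upper-quartile scaling replaced TMM. Klf4 (0.54), Spi1 (0.69) and Runx1 (0.36) were within 2-fold. The BM library is used in both comparisons with marrow, so their results are not independent.

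Genes listed as targets of these factors were counted in the same way. The lists were taken from general knowledge, with earlier results of these data known. Of the 10 granule genes that depend on C/EBPepsilon, 10 were lower in M-BMDM than in BM, with a median log2 ratio of -13.8 against 0.05 over all genes, and 9 were lower in GM-BMDM. Lactoferrin (Ltf) had log2 ratios of -15.74 and -11.68, and Retnlg was at least 6459-fold and 7544-fold lower. Retnlg, Mmp8, Mmp9, Cd177 and Ltf are also among the mature neutrophil markers, whose sum was 2.76% of the BM library and no more than 0.0591% of any culture. Of the C/EBPalpha targets of granulocyte precursors, 6 of 7 were lower in M-BMDM and 7 of 7 in GM-BMDM. Cebpa itself was not lower in either. Mpo, Elane, Prtn3, Ctsg and Ms4a3 of this list are also neutrophil precursor markers, a list of 7 that summed to 13511 CPM in BM, 0.699 CPM in M-BMDM and 5.34 CPM in GM-BMDM. The part of lost precursors in these values was not tested. Mpo, the myeloperoxidase of primary granules, had log2 ratios of -14.95 and -15.17.

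Targets in macrophages are set against marrow beside the 20.6% of all genes that were higher and 22.6% lower in M-BMDM, and 20.2% and 21.9% in GM-BMDM. Of 21 PU.1 targets, 10 were higher and 1 lower in M-BMDM (median 0.90), and 14 were higher and 1 lower in GM-BMDM (median 1.55, against -0.02 over all genes). Cd14, the lipopolysaccharide co-receptor, had log2 ratios of 7.70 and 6.08, while Spi1 itself stayed within 2-fold. Of the 7 C/EBPbeta targets with enough counts, 6 were higher and none lower in M-BMDM (median 4.35). In GM-BMDM 5 were higher and none lower (median 2.94). Saa3, an acute phase protein, had log2 ratios of 10.06 and 9.43. Of the 7 listed targets of Maf with enough counts, 5 were higher and none lower in M-BMDM (median 3.77). In GM-BMDM 6 had enough counts, of which 4 were higher and 1 lower (median 1.93), with log2 ratios of 3.56 for Marco and -2.06 for Cd163. The list of genes that Gfi1 represses, which includes Spi1, had 11 with enough counts. Of these, 5 were higher and 2 lower in M-BMDM, and 6 were higher and 3 lower in GM-BMDM. Csf1r, the M-CSF receptor and a member of 2 of these lists, had log2 ratios of 4.26 and 2.66.

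The GM-CSF and M-CSF cultures differed in some of these factors and were close in others. GM-BMDM had more Cebpa and Klf4 and less Maf than M-BMDM, and the other genes with a level of 5 CPM were within 2-fold. Of 7 with that level, 2 were higher and 1 lower, where 10.8% of 10495 genes were higher and 8.65% lower, 19.5% in all. Cebpa was 2.73-fold higher, a log2 ratio of 1.45 (1.36 to 1.54), and Klf4 2.29-fold higher, a log2 ratio of 1.20 (1.02 to 1.37). Maf was 8.03-fold lower, a log2 ratio of -3.00 (-3.13 to -2.88). Cebpb was 1.74-fold lower (-0.80), Runx1 had a log2 ratio of -0.53 and Spi1 one of -0.07, and the interval of Cebpd held 1. Cebpe, below 5 CPM in both libraries, had a log2 ratio of 2.58 (1.43 to 3.97), and Gfi1 was at least 5.42-fold higher.

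The libraries taken after 3 h of IL6 gave the same 3 calls. In GM-BMDM_3h against M-BMDM_3h, 2 of 7 were higher and 1 lower, where 10.5% of 10452 genes were higher and 8.16% lower, 18.7% in all. The log2 ratio was 1.35 for Cebpa, 1.34 for Klf4 and -2.77 for Maf. For Cebpb it was -0.25, closer to 0 than the -0.80 of the untreated pair.

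A single fit of all 6 libraries with edgeR's quasi-likelihood test, with terms for cell type and for each time of IL6, measured the GM-CSF against the M-CSF cultures over both pairs. It had 1 residual degree of freedom, which comes from how far the M-CSF and GM-CSF cultures differed in their response at 3 h. It called 28.7% of 14617 genes higher and 27.4% lower in GM-CSF cultures, 56.1% in all. By this fit 4 of the 9 were higher and 3 lower. Cebpa had a log2 difference of 1.40 (SE 0.0848, Benjamini-Hochberg adjusted p = 6.989e-21) and Klf4 one of 1.27 (SE 0.103, adjusted p = 8.728e-16). Cebpe was higher by 2.48 (SE 0.312, adjusted p = 9.546e-10) and Gfi1 by 4.65 (SE 0.807, adjusted p = 1.816e-06), both from few counts. Maf had a log2 difference of -2.89 (SE 0.0921, adjusted p = 3.931e-33), Cebpb one of -0.53 (SE 0.0901, adjusted p = 1.413e-06) and Runx1 one of -0.45 (SE 0.0867, adjusted p = 1.329e-05). Spi1 (-0.15, edgeR adjusted p = 0.1072) and Cebpd (-0.13, edgeR adjusted p = 0.2881) were not called, but with total-count scaling they were, at -0.28 (edgeR adjusted p = 0.002045) and -0.26 (0.0322). The spread behind these p-values was mostly pooled over all genes, with 50.67 prior degrees of freedom against 1 residual. Nothing in the labels says that the libraries of a pair came from separate cultures, so that spread may be technical. The coefficient of variation was 6.45% in this fit and 33.1% without the IL6 terms. When the IL6 terms were left out, so that IL6 libraries counted as further samples of their cell type, edgeR called 4 of the 9: Cebpa (adjusted p = 0.004401), Klf4 (0.01005), Maf (0.002259) and Gfi1 (0.01261). Cebpb then had a log2 difference of -0.05 (adjusted p = 0.9934), Cebpe one of 1.85 (0.0572) and Runx1 one of -0.37 (0.1631).

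**Figure D2:**
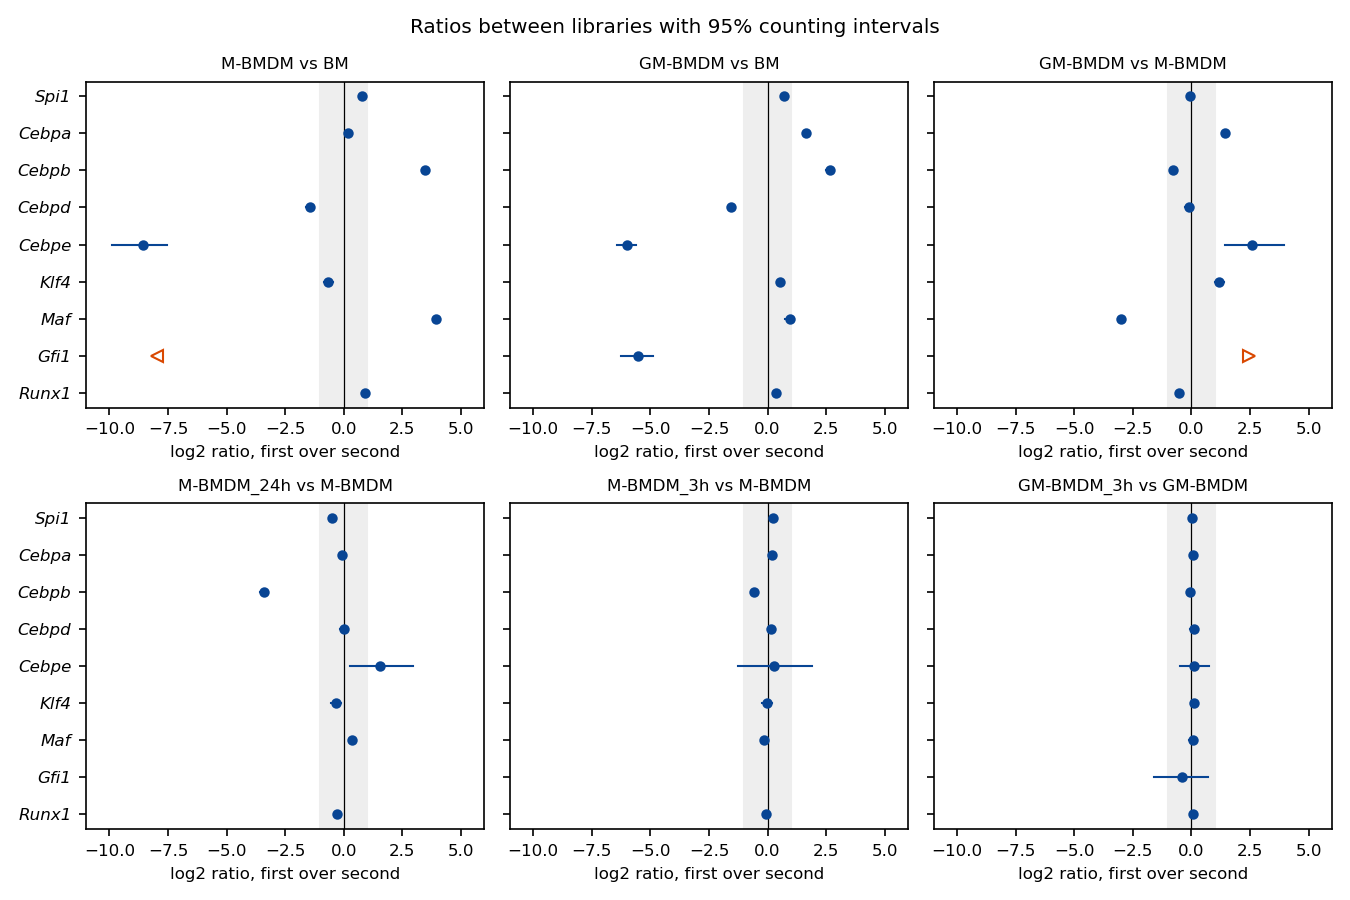
Log2 ratios of the 9 genes between pairs of libraries, 1 panel per pair, with 95% counting intervals; the grey band marks ratios within 2-fold and open triangles mark bounds for Gfi1 where a library had 0 counts. Maf lies at -3.00 in GM-BMDM against M-BMDM, and Cebpb at -3.42 in M-BMDM_24h against M-BMDM while the other genes with enough counts lie in the band.

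Maf was low in the GM-CSF culture together with most of its listed targets. Of the 7 listed targets of Maf with enough counts, 6 were lower and 1 higher in GM-BMDM when set against M-BMDM. The median log2 ratio was -2.27, against -0.03 over all genes, of which 8.65% were lower and 10.8% higher. Folr2, a folate receptor of tissue macrophages, had a log2 ratio of -7.72, and the complement genes C1qa, C1qb and C1qc had ratios of -2.27, -2.34 and -2.36. The mannose receptor gene Mrc1 was the exception, at 2.24.

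Lists tied to the other factors held both higher and lower genes in GM-BMDM against M-BMDM, a pair in which 10.8% of all genes were higher and 8.65% lower. For PU.1, 3 of 21 targets were higher and 5 lower in GM-BMDM (median -0.03), and for C/EBPbeta 2 of 7 were higher and 2 lower (median -0.42). Of the C/EBPepsilon-dependent granule genes 4 had enough counts, and 3 were higher and 1 lower in GM-BMDM. Chil3, a chitinase-like protein also made by alternatively activated macrophages, had a log2 ratio of 12.16 and the collagenase gene Mmp8 one of 5.74, while Mmp9 was at -3.98. From the list of genes repressed by Gfi1, Egr2 (2.79) and Csf1, the gene of M-CSF itself, were higher and Csf1r (-1.60) lower, of 10 with enough counts. Relatives that differed were Klf9 (4.42) and Klf7 (-1.32), Ets1 (-2.60) and Ets2 (-1.73), Cbfa2t3 (5.28) and Runx3 (1.42), and Ddit3 (1.25), a C/EBP protein of the stress response. Among other lineage factors, 5 of 22 were higher and 2 lower, with log2 ratios of 4.58 for Irf4, 4.02 for Batf3 and -3.72 for Bcl6. Irf8, of the same list, had a ratio of -0.82 and was not called. Irf4 in GM-BMDM (55.5 CPM) was not above its level in BM (64.1 CPM). The sum of the dendritic cell markers, given above and mostly Itgax, was higher in the same library. The part of dendritic cells in these values was not tested.

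After 3 h of IL6, none of the 9 genes was called in either macrophage type. In M-BMDM, 0 of 7 with enough counts were called, where 0.101% of 9941 genes were higher and 0.272% lower, 0.372% in all. The log2 ratios were 0.22 for Spi1, 0.17 for Cebpa and -0.15 for Maf. That of Cebpb was -0.59 (-0.66 to -0.53), a level 1.51-fold lower. In GM-BMDM, 0 of 7 were called, where 0.0585% of 10255 genes were higher and 0.107% lower, 0.166% in all. There, only the intervals of Spi1 (0.05) and Cebpa (0.07) excluded 1. The ratio of Cebpb there was -0.04 (-0.12 to 0.04). The difference of the Cebpb responses was 0.55 (0.45 to 0.65, counting error only), and with 1 library per group it has no replicate check. No gene of the 12 lists of targets and relatives was called at 3 h in either macrophage type.

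The same fit of all 6 libraries gave the 3 h response over both macrophage types. It called 0 of the 9 genes, where 0.0889% of 14617 genes were higher and 0.438% lower, 0.527% in all, and 1 of 9 had an unadjusted p below 0.05. That gene was Cebpb, with a log2 difference of -0.32 (SE 0.090, edgeR unadjusted p = 0.0007694, adjusted p = 0.09372). Cebpb passed when the test was limma-voom (adjusted p = 0.02497), when edgeR was fitted to the 4 untreated and 3 h macrophage libraries alone (0.01949), and with DESeq2 size factors (0.02549) or upper-quartile factors (0.008972) in edgeR. The DESeq2 Wald test called 0 of the 9, with 1 below 0.05 unadjusted.

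After 24 h of IL6 in the M-CSF culture, Cebpb was the only one of these genes to be called. Its scaled level went from 236 CPM in M-BMDM to 22.0 CPM, a level 10.7-fold lower and a log2 ratio of -3.42 (-3.56 to -3.29). Of 7 genes with enough counts, 0 were higher and 1 lower, where 11.5% of 10313 genes were higher and 8.93% lower, 20.4% in all. Spi1 (-0.51), Klf4 (-0.34), Runx1 (-0.29) and Maf (0.33) were within 2-fold with intervals that excluded 1, and the intervals of Cebpa and Cebpd held 1. Cebpe had a log2 ratio of 1.52 (0.28 to 2.97) from 7 and 26 counts, and Gfi1 had 0 counts in both libraries. Against M-BMDM_3h, Cebpb had a log2 ratio of -2.83 (-2.97 to -2.70) and was again the only call, 1 of 7, where 11.5% of 10275 genes were higher and 8.83% lower, 20.4% in all. Spi1 (-0.73) and Maf (0.48) again lay in opposite directions, both within 2-fold.

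Most listed targets of C/EBPbeta were lower in the same library. Of 7 with enough counts, 6 were lower and none higher in M-BMDM_24h than in M-BMDM. The median log2 ratio was -3.18, against 0.02 over all genes, of which 8.93% were lower and 11.5% higher. Il10, Nos2, Il6 and Csf3 of the list were below 5 CPM in both libraries and were not counted. Il1b, the inflammatory cytokine, had a ratio of -8.15, Ptgs2, the inducible cyclooxygenase, one of -4.08, Il1rn, the interleukin-1 receptor antagonist, one of -3.96 and arginase 1 (Arg1) one of -3.18. The scavenger receptor gene Msr1 (-0.49) was not called. Of the listed targets of Maf, 1 was higher and none lower, Folr2 at 2.02, and of the 21 PU.1 targets 1 was higher and 2 lower (median -0.37). Of 9 genes repressed by Gfi1 with enough counts, 0 were higher and 4 lower. Their ratios include -2.84 for Csf1, -1.98 for Egr2 and -1.06 for Nab2. The macrophage markers summed to 2.60% of scaled counts in this library and 3.40% in M-BMDM, with none of the 10 at 0 in either. The 5 monocyte markers summed to 198 CPM against 397 CPM in M-BMDM. Those of dendritic cells summed to 15.3 against 28.0 CPM, and those of stem and progenitor cells to 37.3 against 11.9 CPM. Cx3cr1 held most of the monocyte sum, at 191 against 388 CPM, while Ccr2 was at 5.57 against 4.62 CPM. Itgax held most of the dendritic cell sum, at 14.7 against 26.2 CPM. Cd34 held most of the progenitor sum, at 31.3 against 6.72 CPM, and Kit was at 4.98 against 4.89 CPM. Whether the numbers of these cells differed, and their part in the result, was not tested.

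**Figure D3:**
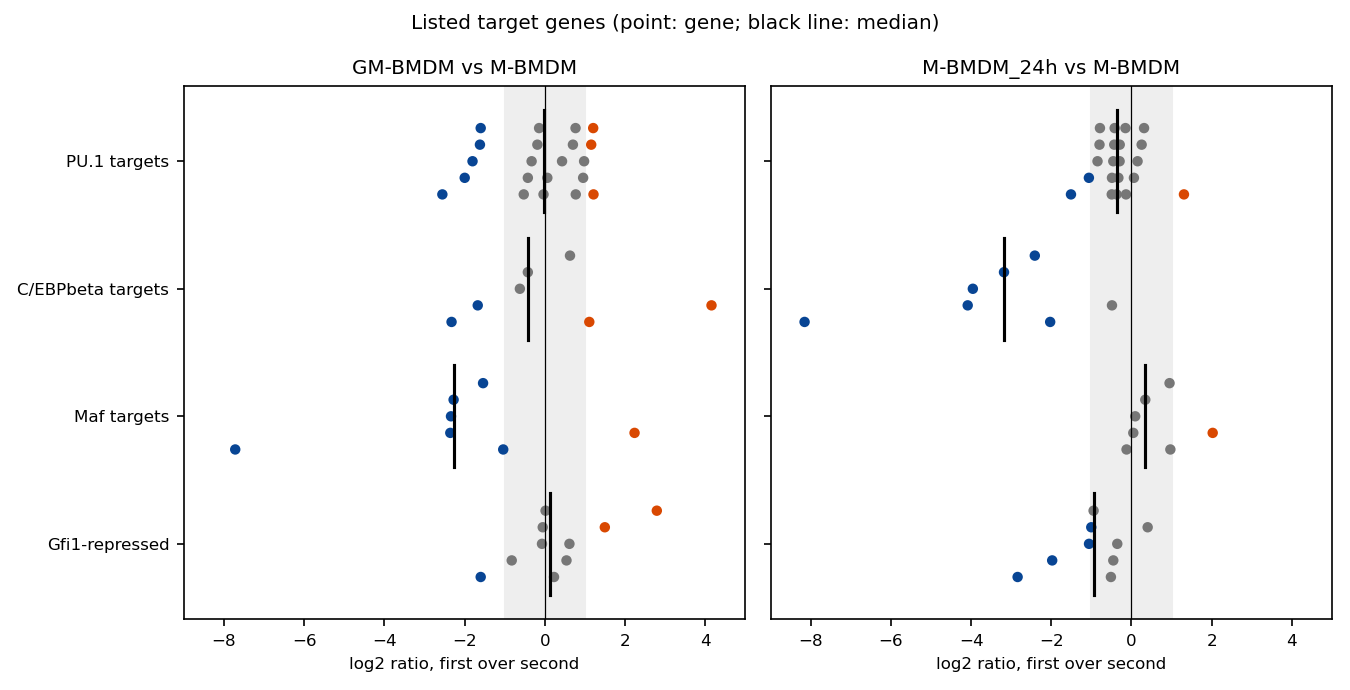
Log2 ratios of listed target genes of PU.1, C/EBPbeta, Maf and Gfi1 in GM-BMDM against M-BMDM and in M-BMDM_24h against M-BMDM, 1 point per gene, orange for higher, blue for lower and grey for neither, with a black line at the median. Of the lists shown, the Maf targets have the median farthest from 0 in the first pair (-2.27). The C/EBPbeta targets have it in the second (-3.18). The C/EBPepsilon-dependent granule genes are not shown, and in the first pair their ratios ran from -3.98 (Mmp9) to 12.16 (Chil3).

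To compare genes with each other, levels were divided by the gene length listed in the deposited table, giving scaled CPM per kilobase. By this measure Spi1 was first of the 9 in every culture, at 189 in M-BMDM, and Cebpe was first in BM, at 117, just above Spi1 at 112. With the summed exon length of the GENCODE annotation instead, Cebpb (157) was above Spi1 (143) in M-BMDM, so that order depends on the length used.

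The C/EBP genes changed places between the libraries. Of the summed per-length level of the 4 genes, Cebpe held 66.4% in BM and Cebpb 8.23%. In M-BMDM, Cebpb held 82.2% and Cebpa 13.6%. In M-BMDM_24h, Cebpa held 51.4%, Cebpb 30.5% and Cebpd 16.3%. In GM-BMDM, Cebpb held 53.1% and Cebpa 41.6%, and the shares after 3 h of IL6 were 51.0% and 43.3%. The sum itself was 176 scaled CPM per kilobase in BM, 191 in M-BMDM, 143 in M-BMDM_3h, 170 in GM-BMDM and 172 in GM-BMDM_3h, but 48.1 in M-BMDM_24h. There the share of Cebpa was larger although its own level, 64.8 CPM, was close to the 68.1 CPM of M-BMDM.

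**Figure D4:**
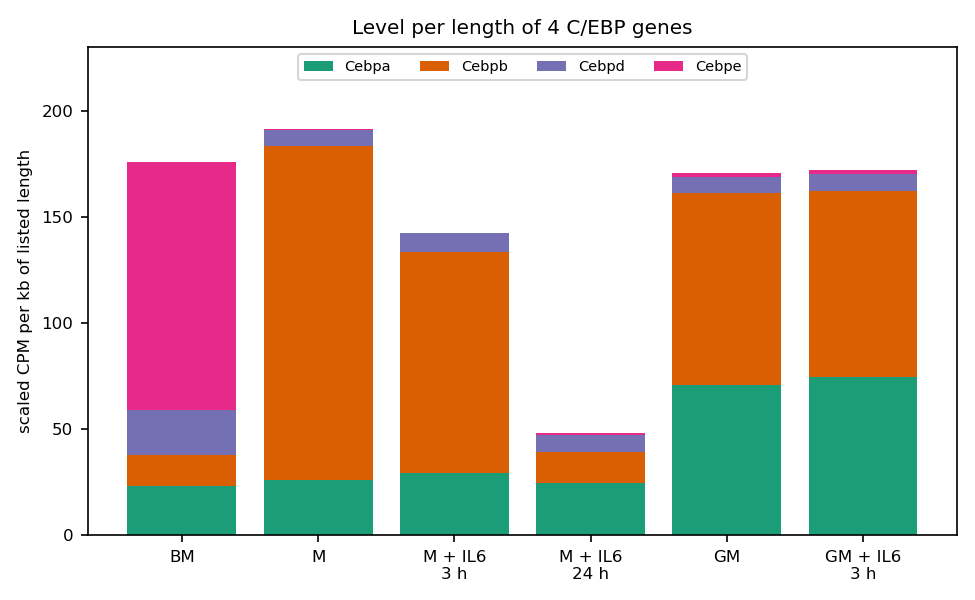
Stacked levels of Cebpa, Cebpb, Cebpd and Cebpe in the 6 libraries, in scaled CPM per kilobase of listed gene length, with 1 library per bar and no error bar. Cebpe fills most of the BM bar (66.4%) and Cebpb most of the M-BMDM bar (82.2%), and the bar of M-BMDM_24h is the shortest at 48.1.

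Genes whose pattern over the 6 libraries was nearest to each factor were found among 9937 genes, by the root mean square difference of log2 profiles centred on their mean. The points share libraries, and no test was made. Maf was followed by Rapgef5 (0.168), Gas6 (0.226) and Pltp (0.275), with only 2 genes within 0.25. Gas6, a ligand of receptors by which macrophages take up dead cells, was at 36.9 CPM in BM, 427 CPM in M-BMDM and 73.1 CPM in GM-BMDM. Cebpb had no gene within 0.25, and the nearest were Gbp2 (0.300), Hivep3 (0.343) and Ier3 (0.351). Gbp2, an interferon-induced GTPase, was at 62.1 CPM in M-BMDM and 11.7 CPM in M-BMDM_24h.

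Cebpa was nearest to Itgb2 (0.102), the beta chain of leukocyte integrins, followed by Gstm4 (0.120) and Ptgr1 (0.125), and 56 genes lay within 0.25. Klf4 was nearest to Jund (0.0992), an AP-1 factor, then to Pced1b (0.127) and B4galnt1 (0.140), with 35 genes within 0.25. Cebpe was nearest to Samd14 (0.302), Itih5 (0.334) and Bmx (0.384), and Gfi1 to Gp9 (0.312), Cavin2 (0.316) and Atp1b1 (0.317). Neither had a gene within 0.25. Their counts in the cultures were low, 7 to 49 for Cebpe and 0 to 19 for Gfi1, so these distances carry much counting error. Spi1, Runx1 and Cebpd had 976, 1314 and 201 genes within 0.25, led by Tbl3 (0.0471), Ern1 (0.0316) and Stk16 (0.0787).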

How the data were processed

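The deposited table held expected counts per gene, estimated by the authors. The submitters' processing notes name HISAT2, StringTie, DESeq2 and the GRCm38 build, with no versions. The sources used here do not give settings or strand use. Expected counts were rounded. The 742 of 56278 rows that name no gene, with 0.240% to 0.522% of counts, were left out. All per-sample columns were used. Annotation came from GENCODE M21 and promoter sequences from RefSeq (GRCm38.p6), which held 7 entries for 5 of the 9 genes. The windows of Gfi1 and Runx1 overlapped the annotated gene and were not printed.

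Counts were scaled with TMM (edgeR 4.0.16, R 4.3.3). In 8 pairs of libraries, ratios had exact 95% Clopper-Pearson intervals from the conditional binomial distribution. No molecular identifiers are named and PCR copies are not independent, so intervals and floors (3 counts) cover counting error only. Fits across genes used edgeR's quasi-likelihood test on genes with CPM of at least 1 in any library, adjusted by Benjamini-Hochberg at 0.05 (coefficient of variation 6.45%). Median ratios of lists cover members with at least 5 scaled CPM in either library.

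The genes and lists were chosen with earlier results of these data known. Named were the 9 genes, up to 4 called genes per list with the largest ratios and the 3 nearest patterns per gene, among genes with at least 10 scaled CPM, using log2 with a prior count of 2. Msr1 at 24 h and Mrc1 were named after their values were seen. TGACG and TTCNNNGAA were added to the search after the data were seen. Alternatives were DESeq2 1.42.0, limma 3.58.1, other scalings, limits, filters and designs. The steps were tested on simulated data. Some genes that the naming rule would give are not reported here.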

Additional observations from a re-analysis of the deposited data

Results flagged for a closer look

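In 3 of the 9 genes the responses to 3 h of IL6 had opposite signs in the macrophage types. The difference was not tested, since each group had 1 library. Maf had a log2 ratio of -0.15 in M-BMDM and 0.09 in GM-BMDM, a difference of 0.24 (interval 0.06 to 0.42, counting error only). For Runx1 the ratios were -0.08 and 0.09, a difference of 0.17 (0.03 to 0.30). For Klf4 they were -0.03 and 0.11, a difference of 0.14 (-0.10 to 0.38), which counting error alone could give. All 3 differences are well under 2-fold.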

How the results depend on the processing

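With 1 library per group, no library could be left out of a pair. No paired analysis was possible because the labels carry no replicate numbers. No ratio or difference of the 9 genes that was called turned its direction. Among values that were not called, total-count scaling turned Cebpa in M-BMDM against BM (0.17 to -0.03), Cebpa in M-BMDM_24h against M-BMDM (-0.07 to 0.07) and Cebpd in M-BMDM_24h against M-BMDM_3h (-0.15 to 0.04), and Cebpd in M-BMDM_24h against M-BMDM went from 0.01 to -0.0053 with DESeq2 scaling and -0.12 with upper-quartile scaling. In the fit of cell type Spi1 went from -0.15 to 0.022 without IL6 terms. In the fit of IL6 at 3 h, with both IL6 times as 1 level, Spi1 went from 0.13 to -0.039, Klf4 from 0.049 to -0.055, Maf from -0.055 to 0.099 and Runx1 from 0.0013 to -0.067. There Gfi1 went from -0.29 to 0.070 with limma-voom, and Runx1 to -0.00038 with limma-voom, -0.027 with total-count and -0.016 with upper-quartile scaling. Over the fold limits, the genes called were 3212 at 3-fold in M-BMDM against BM (4854 at 2-fold) and 3059 in GM-BMDM against BM (4776). In GM-BMDM against M-BMDM they were 3966 at 1.5-fold and 1040 at 3-fold (2042 at 2-fold), and 3170 with a level limit of 1 CPM. In GM-BMDM_3h against M-BMDM_3h they were 3809, 1008 and 2965 in the same order (1950). In M-BMDM_24h they were 4030 and 1041 against M-BMDM (2105), and 3981 and 1020 against M-BMDM_3h (2091). At 3 h in M-BMDM they were 163 at 1.5-fold, 10 at 3-fold, 291 at 1 CPM and 13 at 10 CPM (37), and in GM-BMDM 107, 8, 234 and 4 (17).

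Among the 9 genes, 8 were called at 1.5-fold in M-BMDM against BM, as were 6899 of 11226 genes, and at 3-fold only Maf, 1 gene, in GM-BMDM against M-BMDM and likewise 1 in GM-BMDM_3h against M-BMDM_3h. At 1.5-fold 1 was called at 3 h in M-BMDM (Cebpb) and 2 in M-BMDM_24h against M-BMDM_3h (Cebpb, Spi1). At 1 CPM, 2 were called at 24 h (Cebpb, Cebpe) against either library. In the fit of cell type the DESeq2 Wald test called 4995 genes and the fit without IL6 terms 1873, with 4 of the 9. In the fit of IL6 at 3 h, 77 genes were called in the edgeR fit, 0 with both IL6 times as 1 level, 3 with DESeq2, 125 with limma-voom, 137 with 4 libraries, 124 with DESeq2 scaling and 166 with upper-quartile scaling; the last 4 called 1 of the 9, Cebpb. Total-count scaling called 9 of the 9 in the fit of cell type, and 8392 of 14617 genes. The cause of these moves, other than the limits themselves, was not tested.

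Total-count scaling moved the median log2 ratio of all genes from -0.02 to -0.39 in GM-BMDM against BM, from 0.05 to -0.16 in M-BMDM against BM, from -0.03 to -0.19 in GM-BMDM against M-BMDM and from 0.02 to 0.16 in M-BMDM_24h against M-BMDM, where upper-quartile scaling gave -0.11. The split of higher and lower genes in GM-BMDM against BM went from 2292 and 2484 to 1692 and 3450, and in GM-BMDM against M-BMDM from 1134 and 908 to 904 and 1191. In M-BMDM_24h against M-BMDM_3h it went from 1184 and 907 to 1568 and 685, and in M-BMDM_24h against M-BMDM, with upper-quartile scaling, to 984 and 1149. Calls of the 9 genes in pairs were the same under the other scalings except that of Maf in GM-BMDM against BM.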

Other observations

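Some relatives of these factors were called at 24 h of IL6 in M-BMDM, where 11.5% of all genes were higher and 8.93% lower, 20.4% in all, so the shares of the longer lists were near that of all genes. Maff, a small Maf protein that lacks an activation domain, had a log2 ratio of -4.20 and was the only called gene of its family list. In the ETS list Ets2 alone was called, at -2.02. Of 8 KLF genes with enough counts, Klf7 (-1.92) and Klf10 (-1.35) were lower and none higher, and of 7 genes of the GFI and RUNX list Runx3 (-2.15) and Runx2 (-1.35) were lower and none higher. Among 18 other lineage factors Lmo2 was higher (1.19), and Egr2 (-1.98), Nr1h3 (-1.18) and Id1 (-1.10) were lower. As at 24 h above, IL6 and time in culture cannot be told apart.

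Against marrow, the list of other lineage factors held both directions. Of 27 in M-BMDM, 9 were higher and 13 lower, where 20.6% and 22.6% of all genes were, and of 28 in GM-BMDM 10 were higher and 14 lower, where 20.2% and 21.9% were. Pax5, the B cell factor, had log2 ratios of -11.29 and -9.93, and Myb, a factor of progenitors, -10.76 and -7.99. Gata1, the red cell factor, had no count in M-BMDM and was at least 521-fold lower. Maff (5.59 and 5.25) was higher in M-BMDM and GM-BMDM. Markers of stem and progenitor cells summed to 286 CPM in BM, 11.9 CPM in M-BMDM and 96.2 CPM in GM-BMDM. Kit made up most of the GM-BMDM sum, at 83.4 CPM against 61.8 CPM in BM. The other markers of this list were lower in GM-BMDM than in BM, with Cd34 at 12.0 against 31.7 CPM and Myb at 0.736 against 187 CPM. The part of such cells in the Gfi1 and Cebpe counts of GM-BMDM was not tested.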
